A study of Homo sapiens with 19 samples.

Results

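BCR, ABL1, KMT2A and MLLT3 are the partner genes of a pair of leukaemia fusions, BCR-ABL1 and KMT2A-MLLT3. The 4 genes were taken by name from the GENCODE annotation (hg38), out of 20033 protein-coding genes on chromosomes 1 to 22, X and Y. All peaks for H3K27ac, the acetylated form of histone H3 lysine 27, that lay in these genes or within 100 kb of them were collected from 4 myeloid leukaemia cell lines. Of 130903 peaks in the 4 lists, 103 fell into these windows and 47 into the gene bodies. The lines were HL-60 and Molm13, both untreated, and OCI-AML3 and K562, both of which had been transduced with lentiviral dCas9-KRAB-mCherry, a catalytically dead Cas9 joined to a repressor domain, and with an sgRNA vector that held no guide, and then sorted. HL-60, Molm13 and OCI-AML3 come from acute myeloid leukaemia and K562 from chronic myeloid leukaemia in blast crisis. K562 carries BCR-ABL1, which it is known to hold in extra copies, and Molm13 carries KMT2A-MLLT3. The empty vector and the cell line could not be told apart, and the series' other samples were not analysed here, apart from 1 list of dCas9 peaks. Each line had 1 library, so no SD and no test between lines could be given. How many reads underlie a list was unknown.

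The window of each gene differed in size. BCR lies on chromosome 22 at 23179704 to 23318037, on the plus strand, and spans 138 kb. ABL1 lies on chromosome 9 at 130713043 to 130887675, on the plus strand, and spans 175 kb. KMT2A lies on chromosome 11 at 118436456 to 118526832, on the plus strand, and is the shortest at 90.4 kb. MLLT3 lies on chromosome 9 at 20341669 to 20622499, on the minus strand, and is the longest at 281 kb. Positions are given as distances in kb from the 5′ end of the gene, positive in the direction of transcription and negative upstream.

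ABL1 encodes a tyrosine kinase, and BCR encodes a multidomain signalling protein with a coiled coil. In BCR-ABL1 the 5′ exons of BCR are joined to ABL1 from exon 2 onwards, so that the BCR promoter drives the kinase and the coiled coil keeps it active. KMT2A encodes a histone H3 lysine 4 methyltransferase that sustains HOX gene expression in blood progenitors, and MLLT3 encodes a reader of acylated histones that binds the transcription elongation machinery. In KMT2A-MLLT3 the 5′ part of KMT2A is joined to the 3′ part of MLLT3, and the KMT2A promoter drives the fusion. H3K27ac marks active promoters and enhancers, and a peak is a stretch that the caller found enriched for it. Reads from the intact and the rearranged copy of a gene map to the same reference, so a peak could not be assigned to either copy, and the breakpoints of K562 and Molm13 were not given in the sources used here.

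Markers of the lines were checked by peaks within 500 bp of a transcription start site. K562 had such a peak at 6 of 6 erythroid markers, whereas each of the other lines had 1 of 6, at EPOR. Myeloid markers were at 5 of 6 in HL-60, 6 of 6 in Molm13, 6 of 6 in OCI-AML3 and 3 of 6 in K562. HOXA9, HOXA10 and MEIS1 are genes typically active in KMT2A-rearranged or NPM1-mutant leukaemia. All were marked in Molm13 and in OCI-AML3, none was marked in HL-60, and MEIS1 alone was marked in K562.

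Sequences of 300 bases are shown for the 2 alternative promoters of ABL1, which differed in K562, and for 3 places inside introns, a BCR stretch common to HL-60, Molm13 and OCI-AML3, an ABL1 peak found in K562 only and an MLLT3 peak found in Molm13 only. Capitals mark any match on either strand to GATAAG (bound by GATA factors), GGGCGG (bound by Sp1), TGTGGT (bound by RUNX factors) or GAGGAAGT (bound by PU.1). The promoter windows run from 250 bases before to 50 bases after the start site, that of 1a from RefSeq and that of 1b read from hg38. All sequences run 5′ to 3′ on the strand of the gene.
ABL1 promoter 1b, hg38 chr9:130712793-130713092, plus strand: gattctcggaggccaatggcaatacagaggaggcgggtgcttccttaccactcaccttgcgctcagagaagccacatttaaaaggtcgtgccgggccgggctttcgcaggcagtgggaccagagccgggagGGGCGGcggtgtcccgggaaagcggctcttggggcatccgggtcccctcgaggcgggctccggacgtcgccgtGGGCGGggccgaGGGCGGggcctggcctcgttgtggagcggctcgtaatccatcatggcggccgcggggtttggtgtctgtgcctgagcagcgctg
ABL1 promoter 1a, hg38 chr9:130835004-130835303, plus strand: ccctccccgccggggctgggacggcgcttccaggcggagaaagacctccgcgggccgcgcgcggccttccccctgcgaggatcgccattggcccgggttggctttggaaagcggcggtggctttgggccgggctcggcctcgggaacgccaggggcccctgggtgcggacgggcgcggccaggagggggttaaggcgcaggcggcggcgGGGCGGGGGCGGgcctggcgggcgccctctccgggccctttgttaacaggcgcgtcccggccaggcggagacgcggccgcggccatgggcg
BCR intron 1 region, hg38 chr22:23217272-23217571, plus strand: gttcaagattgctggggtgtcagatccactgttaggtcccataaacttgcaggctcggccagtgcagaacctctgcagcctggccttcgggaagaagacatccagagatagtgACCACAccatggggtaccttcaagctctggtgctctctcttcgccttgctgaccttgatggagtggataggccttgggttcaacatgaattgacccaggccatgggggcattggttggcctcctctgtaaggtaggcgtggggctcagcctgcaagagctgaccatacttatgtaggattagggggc
ABL1 intronic peak of K562, hg38 chr9:130824902-130825201, plus strand: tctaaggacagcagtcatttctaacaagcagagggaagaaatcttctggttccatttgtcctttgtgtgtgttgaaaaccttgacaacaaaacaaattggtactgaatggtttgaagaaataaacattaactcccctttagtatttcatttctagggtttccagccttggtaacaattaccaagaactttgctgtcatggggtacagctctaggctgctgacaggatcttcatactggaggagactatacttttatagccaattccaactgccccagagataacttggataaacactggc
MLLT3 intron 2 peak of Molm13, hg38 chr9:20512102-20512401, minus strand: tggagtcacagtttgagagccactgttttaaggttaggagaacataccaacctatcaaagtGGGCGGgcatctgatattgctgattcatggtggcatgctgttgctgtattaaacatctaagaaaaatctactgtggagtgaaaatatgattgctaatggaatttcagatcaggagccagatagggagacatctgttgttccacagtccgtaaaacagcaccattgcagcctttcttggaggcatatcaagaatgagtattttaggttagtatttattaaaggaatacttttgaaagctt

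The promoters were rich in CpG and the intronic regions were not. CpG dinucleotides numbered 29 in promoter 1b of ABL1, 42 in 1a, 27 in the BCR promoter, 36 in the KMT2A promoter and 24 in the MLLT3 promoter, against a median of 14 over 35116 RefSeq promoters. The 3 intronic windows held 4 in BCR, 0 in ABL1 and 2 in MLLT3. All 5 promoter windows held 2 or 3 matches to GGGCGG and none to the other motifs, and GGGCGG was present in 45.0% of all promoters. Among the intronic windows, that of BCR held 1 TGTGGT, that of MLLT3 held 1 GGGCGG, and that of ABL1 held none of the motifs. In the central 300 bases of all Molm13 peaks, TGTGGT was present in 19.5% and GGGCGG in 19.3%, and in those of all K562 peaks GATAAG was present in 12.0%. No match says only that these letters are not in the window.

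**Figure D1:**
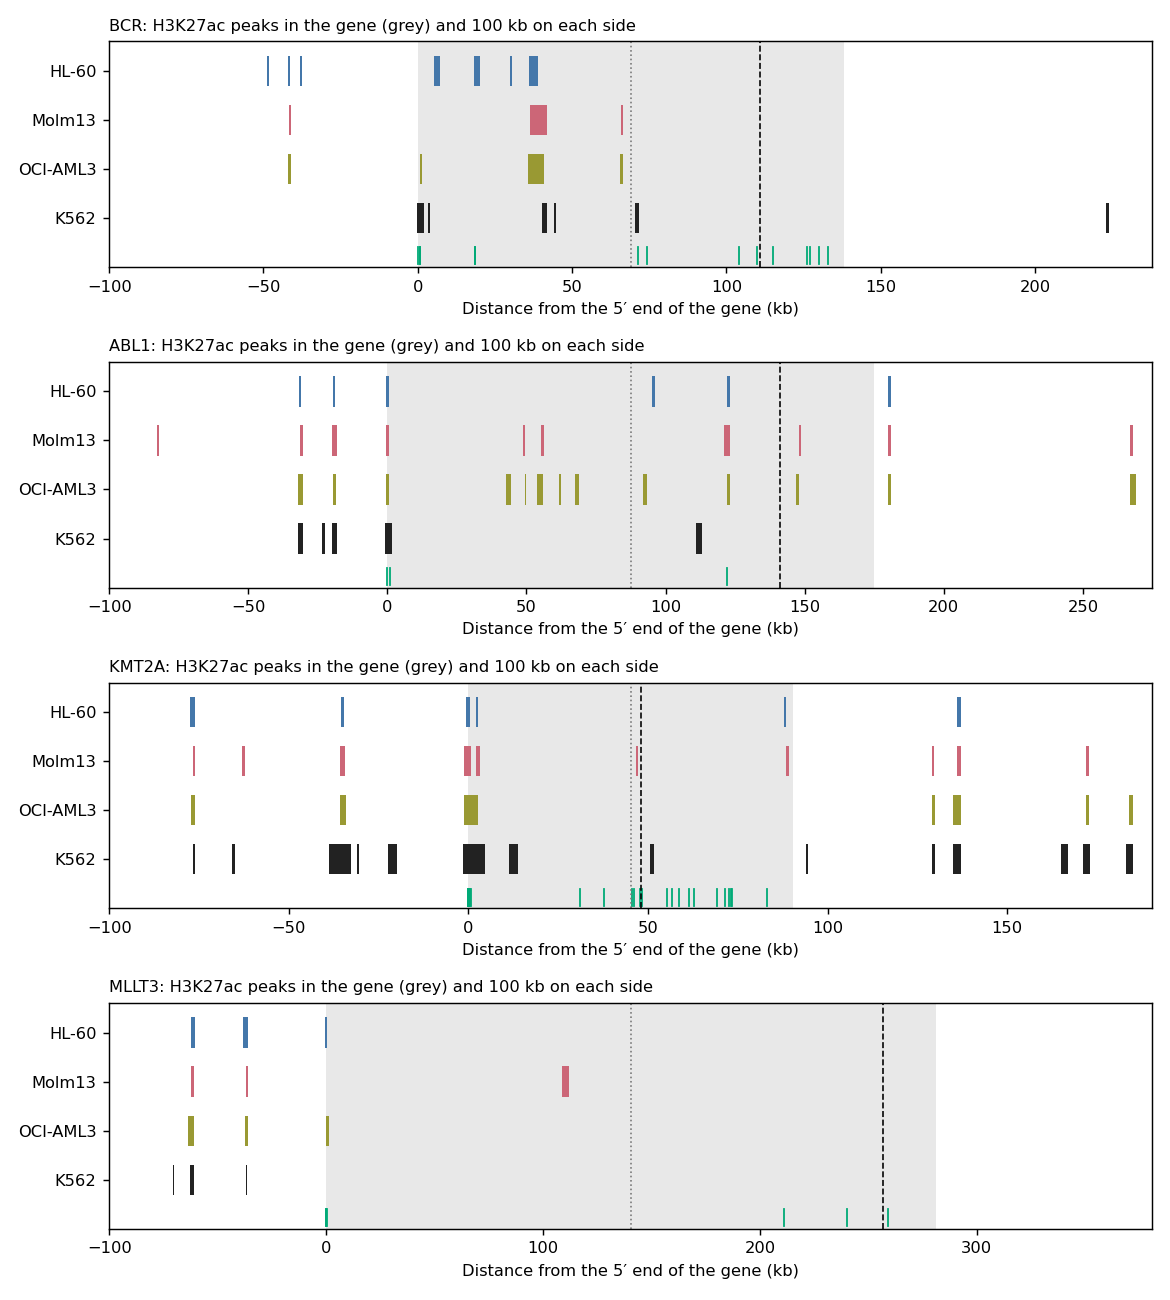
Bars are H3K27ac peaks along each gene (grey) and 100 kb on each side, by distance from the 5′ end in kb, with 1 row per cell line, green ticks at annotated start sites, a dotted line at the middle of the gene and a dashed line at the exon landmark of the fusion. BCR peaks lie in the 5′ part of the gene in all 4 lines, and MLLT3 holds no peak in K562 and 1 in each of the other lines.

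BCR carried its H3K27ac in and before its long intron 1, and no line had a peak in the gene beyond 71.6 kb. There were 4 body peaks in HL-60, 5 in K562, 2 in Molm13 and 3 in OCI-AML3. Overlapping peaks of the lists were joined into regions, and that of intron 1 at 35.8 to 41.8 kb was the only region of the BCR window with a peak from each of the 4 lists. No base of it was under a peak in all lists, since the HL-60 and the K562 peak shared 0 bp. The widest BCR peak of the 3 acute myeloid lines lay there, at 3015 bp in HL-60, 5350 bp in Molm13 and 5132 bp in OCI-AML3, and the K562 peak there was 1534 bp wide. The bases printed above are the centre of the stretch that the HL-60, Molm13 and OCI-AML3 peaks had in common, which lay 5′ of the K562 peak at 40.2 to 41.7 kb. 0 of the 5 K562 peaks were left among each list's strongest peaks by fold enrichment, taken in the number of the shortest list. That setting ranks by fold enrichment, which was low for all 5 in their list. With a q-value below 0.001 there were 2.

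The main BCR start sites, at 0 to 0.805 kb, were marked in 2 lines only. K562 had a peak of 2432 bp from -0.356 to 2.08 kb, with a −log10 q-value of 10.3, and OCI-AML3 a peak of 763 bp from 0.651 to 1.41 kb, with a −log10 q-value of 1.78. The q-value is the false discovery value that the caller wrote for the peak, and a larger −log10 q-value marks a more significant peak. The K562 peak at the main start sites lay at the 96.8th percentile of its list in −log10 q-value but at the 5.4th in fold enrichment. HL-60 and Molm13 had none there. HL-60 instead had a peak of 2010 bp from 18.2 to 20.2 kb over an internal start site, and a peak from 5.23 to 7.17 kb without a start site, whereas Molm13 had a peak at no annotated start of BCR. K562 had another peak at an internal start site, from 70.3 to 71.6 kb, and a peak at 65.6 to 66.5 kb was found in Molm13 and OCI-AML3 only.

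BCR exon 14, where BCR sequence commonly ends in the fusion transcript, ends at 111 kb. All 14 BCR body peaks of the 4 lists lay 5′ of it, and the 27.6 kb that follow held 0 covered bases in each list. Only 1 peak was found within 100 kb beyond the gene, in K562 at 223 to 224 kb. On the upstream side, HL-60, Molm13 and OCI-AML3 each had a peak at -42.2 to -41.1 kb, and K562 had none. Those of HL-60 and OCI-AML3 lay over the start of an annotated U7 small nuclear RNA copy, and that of Molm13 lay 107 bp from it.

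ABL1 has a pair of alternative first exons, 1b at its 5′ end and 1a some 122 kb further on, and both are spliced to exon 2 at 141 kb. The 1b start was marked in all 4 lines and the 1a start in all but K562. At 1b, the peak was 799 bp wide in HL-60 with a −log10 q-value of 14, 1077 bp in Molm13 with 18.9, 1071 bp in OCI-AML3 with 18.6 and 2512 bp in K562 with 4.26. It was the ABL1 body peak of largest fold enrichment in every list, where fold enrichment is the ratio of a peak to the local background as the caller gave it, and lay at the 94th percentile of its list in HL-60, the 97.3rd in Molm13, the 95th in OCI-AML3 and the 66.3rd in K562. Fold enrichment was used only within a list, since the lists differ in number of peaks and in covered bases.

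At the 1a start, the peaks were 1084 bp wide in HL-60, 1351 bp in Molm13 and 1600 bp in OCI-AML3. The K562 list held no peak there, and its only other ABL1 peak lay 9206 bp upstream of the 1a start, from 111 to 113 kb, with a −log10 q-value of 9.18. No other list had a peak at that place. Intron 1, between exons 1b and 2, is 140 kb long and held most of the other ABL1 peaks. OCI-AML3 had 9 body peaks, against 3 in HL-60, 5 in Molm13 and 2 in K562. With a q-value below 0.001, 3 were left in OCI-AML3, 2 in HL-60, 3 in Molm13 and 2 in K562. Of the intronic regions, those at 48.9 to 50 kb and at 53.9 to 56.2 kb were found in Molm13 and OCI-AML3. Of the ABL1 regions held by 1 list only, the strongest by fold enrichment lay at 95 to 96.1 kb for HL-60, at 42.5 to 44.3 kb for OCI-AML3, at -82.8 to -82.5 kb for Molm13 and at -23.4 to -22.3 kb for K562.

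From exon 2 on, the part of ABL1 that enters the fusion and encodes the kinase, only Molm13 and OCI-AML3 had a peak. It lay at 147 to 148 kb in intron 3 in both, with a width of 683 bp in Molm13 and 1155 bp in OCI-AML3. HL-60 and K562 had none in the 33.6 kb from exon 2 to the end of the gene. Around the gene, EXOSC2, which encodes a subunit of the RNA exosome, was marked at its start in all lists, at -19.9 to -18.0 kb, and so was a region at -32.1 to -30.2 kb. A peak at the start of QRFP, a neuropeptide gene 180 kb from the ABL1 start, was found in HL-60 and Molm13, with 1 in OCI-AML3 that lay 71 bp from it, and none in K562.

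KMT2A, whose reference transcript has 36 exons, was marked at its 5′ end in every line, at the CpG-rich promoter that also drives the fusion. The start-site peak was 1290 bp wide in HL-60, 6116 bp in K562, 1989 bp in Molm13 and 3781 bp in OCI-AML3. That of K562 lay at the 94.7th percentile of width in its list, that of OCI-AML3 at the 90.1st, that of Molm13 at the 74.7th and that of HL-60 at the 69.9th. In HL-60 and Molm13, a second peak lay behind the first, at 2.17 to 2.46 kb and at 2.13 to 3.27 kb, so that all 4 lines had acetylation within the stretch that K562 covered in 1 piece.

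The breakpoints of KMT2A usually fall in a cluster between exons 8 and 14, here 8.90 kb from 46.0 to 54.9 kb. Both fusion lines had a peak in it, at different places. Molm13 had a peak of 455 bp at 46.6 to 47.1 kb in intron 8, with a −log10 q-value of 1.41, and K562, the line with the other fusion, had a peak of 1203 bp at 50.5 to 51.7 kb in intron 10, with 1.89. HL-60 and OCI-AML3 had none. OCI-AML3 had no KMT2A peak besides that at the start, whereas K562 alone had a peak of 2460 bp at 11.4 to 13.8 kb in intron 1, and HL-60 and Molm13 had a peak near the 3′ end, at 87.8 to 89.1 kb. With a q-value below 0.001, the 4 KMT2A peaks of Molm13 fell to 1.

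The KMT2A window was dense in marked neighbours. The starts of UBE4A, a ubiquitin ligase gene, of ATP5MG, a subunit gene of ATP synthase, and of ARCN1 and IFT46, which encode a coatomer subunit and an intraflagellar transport protein and share a promoter, were marked in all lists, that of UBE4A in K562 by a peak 12 bp away. Flanking peaks numbered 3 in HL-60, 11 in K562, 6 in Molm13 and 6 in OCI-AML3. The region over ATP5MG was widest in K562, where the peak reached 6221 bp. The strongest region held by K562 only lay 3285 bp from a start of PHLDB1, at 165 to 167 kb.

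MLLT3 was the least marked of the 4 genes, with 1 body peak in each of HL-60, Molm13 and OCI-AML3 and 0 in K562. Its main start was marked weakly in HL-60, by a peak of 646 bp with a −log10 q-value of 1.26, and in OCI-AML3 by a peak of 1249 bp with a −log10 q-value of 1.5. The HL-60 value corresponds to a q-value above 0.05, the limit the study states, as was so for 15.0% of the HL-60 list. Neither Molm13 nor K562 had a peak at any MLLT3 start. In Molm13, the line with the KMT2A-MLLT3 fusion, the only MLLT3 peak lay in intron 2 at 109 to 112 kb (chromosome 9, 20510938 to 20513565). It was 2628 bp wide with a −log10 q-value of 2.57, and no other list held a peak there. With a q-value below 0.001, no list held a peak in MLLT3.

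No list held a peak from MLLT3 exon 6, 257 kb into the gene and the usual entry point of the fusion, to the 3′ end, nor in intron 5 before it, which is 48.0 kb long. Upstream, FOCAD, which encodes focadhesin and is transcribed in the opposite direction, had a peak within 620 bp of its start in all lists, at -38.2 to -35.8 kb, and another at FOCAD and FOCAD-AS1 at -63.5 to -60.5 kb. K562 alone had a further peak of 659 bp at -70.5 to -69.9 kb. The empty body of MLLT3 in K562 thus stood beside marked neighbours within the same 100 kb.

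Set against all genes, presence at a start site was common. Of the 20033 protein-coding genes, 44.7% had a peak within 500 bp of any annotated start site in HL-60, 55.9% in K562, 53.9% in Molm13 and 57.7% in OCI-AML3. Of the 4 members, 4 had one in HL-60, 3 in K562, 2 in Molm13 and 4 in OCI-AML3. With 4 genes these counts are a description. Over all lists, 40.5% of protein-coding genes were marked at a start in all 4 lines, as ABL1 and KMT2A were, and 35.4% in none.

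With all peaks of the lists, the share of the gene body under peaks placed BCR, ABL1 and KMT2A above the median gene in every line and MLLT3 below it. Among 6794 protein-coding genes of at least 50 kb, the median share was 0.495% in HL-60, 1.75% in K562, 1.32% in Molm13 and 1.82% in OCI-AML3. BCR was covered for 5.21% in HL-60, 4.4% in K562, 4.32% in Molm13 and 4.93% in OCI-AML3. Its rank ran from the 95.6th percentile in HL-60 over the 77.5th in Molm13 and the 75.1st in OCI-AML3 to the 68.0th in K562, where it carries the fusion. The K562 share was 2.61% with a q-value below 0.001 and 0% among the strongest peaks by fold enrichment.

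ABL1 was covered for 1.52%, 2.44%, 6.32% and 2.16% in HL-60, Molm13, OCI-AML3 and K562, at the 73.2nd, 63.8th, 81.2nd and 53.6th percentile of the respective list. The OCI-AML3 share of ABL1 was 2.34% with a q-value below 0.001, 2.52% among the strongest peaks and 4.07% on the MANE Select transcript, which starts at exon 1a, and the K562 share was 1.02% and 0% under the latter 2 settings. For KMT2A the shares were 1.63%, 3.43%, 2.87% and 9.05% in the same order, at the 74.9th, 72.0th, 61.2nd and 84.0th percentile. The K562 value was thus the highest of KMT2A, and the Molm13 value, in the line that carries the fusion, was the second highest share and the third highest rank. The Molm13 share fell to 0.818% with a q-value below 0.001 and to 2.08% among the strongest peaks, below the 2.87% that OCI-AML3 had under both. MLLT3 was covered for 0.103% in HL-60, 0% in K562, 0.936% in Molm13 and 0.445% in OCI-AML3, at the 35.9th, 15.7th, 44th and 30th percentile in the same order, and Molm13 had the highest value of this gene. With a q-value below 0.001 it was 0% in every list. Genes of at least 50 kb without a covered base made up 34% in HL-60, 31.4% in K562, 25.2% in Molm13 and 23.9% in OCI-AML3, so that the 15.7th percentile of MLLT3 in K562 is the middle of a tie at 0.

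**Figure D2:**
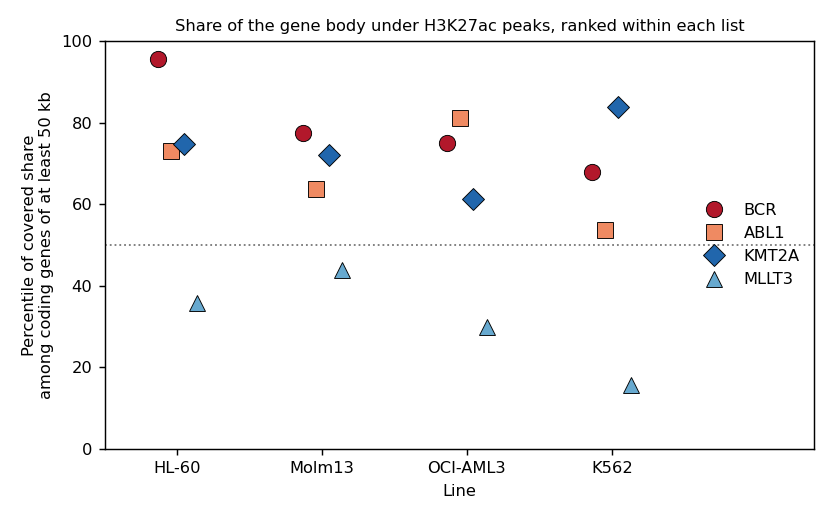
Percentile of the share of each gene body under H3K27ac peaks among protein-coding genes of at least 50 kb, ranked within each line's own list, with 1 symbol per gene and a dotted line at the median. BCR, ABL1 and KMT2A lie above the line in all 4 lists, and MLLT3 lies below it, lowest in K562 at the 15.7th percentile, the middle of the 31.4% of genes without a covered base.

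Each gene was cut at its middle to compare the 5′ with the 3′ side. BCR was covered on the 5′ side for 10.4% in HL-60, 6.84% in K562, 8.63% in Molm13 and 9.85% in OCI-AML3, and on the 3′ side for 1.96% in K562 and 0% in the other lists. The 3′ bases of K562 belonged to the peak at 70.3 to 71.6 kb, just past the middle at 69.2 kb. ABL1 was nearly even in Molm13, with 2.54% on the 5′ side and 2.33% on the 3′ side, and in K562, with 2.04% and 2.28%. It was covered more on the 5′ side in OCI-AML3, for 7.64% against 5.00%, and more on the 3′ side in HL-60, for 0.496% against 2.54%, where promoter 1a lies. With the cut at exon 2 in place of the middle, the 5′ side of ABL1 was covered more in all 4 lists.

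KMT2A was covered more on the 5′ side in all 4 lists, by 0.281 percentage points in HL-60, 12.8 in K562, 1.45 in Molm13 and 5.75 in OCI-AML3, although the HL-60 difference was -1.49 when only peaks with a q-value below 0.001 were kept. MLLT3 held no covered base on the 3′ side in any list. The direction was that of most long genes. Of the genes of at least 50 kb with any covered base, the 5′ side was covered more in 71.7% in HL-60, 75.7% in K562, 69.2% in Molm13 and 71.2% in OCI-AML3, and of the members with a covered base this held for 3 of 4 in HL-60, 2 of 3 in K562 and 4 of 4 in both Molm13 and OCI-AML3. Any covered base on the 3′ side was found in 30.6% of the genes of at least 50 kb in HL-60, 41.1% in K562, 44.8% in Molm13 and 44.7% in OCI-AML3, and in 2, 3, 2 and 1 of the 4 members in the same order.

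**Figure D3:**
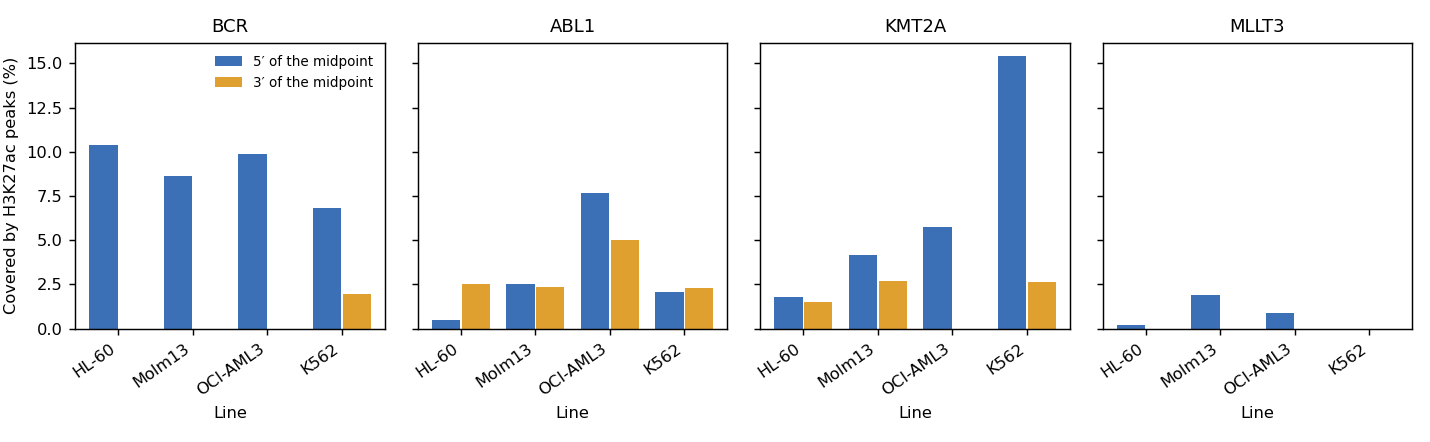
Bars give the percentage of bases under H3K27ac peaks on the 5′ side (blue) and the 3′ side (orange) of the middle of each gene, for the 4 lines, without error bars since each line had 1 library. BCR has 3′ coverage in K562 only (1.96%), MLLT3 has none in any line, and KMT2A reaches 15.4% on the 5′ side in K562.

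In K562, the peaks of BCR and 1 of the 2 body peaks of ABL1 stood out in fold enrichment. For each peak, the 500 peaks of the same list nearest to it in q-value were taken, and the percentage of them with a lower fold enrichment was counted. This measure, called the fold rank here, was chosen after the values had been seen, and its median over a whole list lay between 49 and 50. A fold rank below 1 was found for 0.953% of HL-60, 0.988% of Molm13, 0.956% of OCI-AML3 and 1.03% of K562 peaks.

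All 5 K562 peaks in BCR had a fold rank between 0 and 0.2. Their fold enrichment was 2.32 at the main start, 1.64 at 3.41 kb, 1.78 at 40.2 kb, 1.66 at 44.2 kb and 1.68 at 70.3 kb, with −log10 q-values of 10.3, 1.91, 3.19, 2.49 and 2.41. By comparison, the K562 list had a median fold enrichment of 2.85 and a 5th percentile of 2.32. The K562 peak beyond the gene at 223 kb had a fold enrichment of 2.78, a −log10 q-value of 2.60 and a fold rank of 33.2.

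The 2 ABL1 body peaks of the same list differed. The peak at the 1b start had a fold enrichment of 3.17 and a fold rank of 33.8. The 3 peaks within 100 kb upstream of it had fold ranks of 9.2 to 75.0. Further upstream, a K562 peak at -526 kb had a fold enrichment of 2.32 and a fold rank of 1.4. The peak at 111 kb had a −log10 q-value of 9.18, above the 4.26 of the start peak, but a fold enrichment of only 2.31 and a fold rank of 0. Thus 6 of the 10 K562 body peaks of the members had a fold rank below 1, 5 in BCR and 1 in ABL1, whereas of the body peaks of HL-60 (11), Molm13 (12) and OCI-AML3 (14) there were 0.

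**Figure D4:**
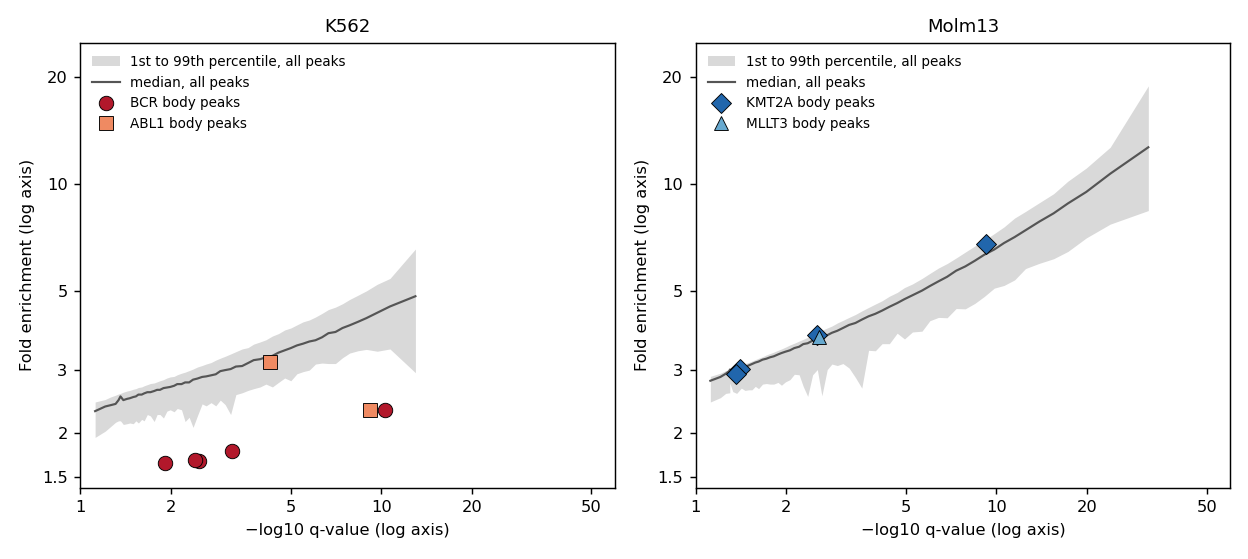
Fold enrichment against −log10 q-value, both on log axes, for body peaks of BCR and ABL1 in K562 (left) and of KMT2A and MLLT3 in Molm13 (right); the grey band spans the 1st to the 99th percentile of all peaks of the list and the line is the median. The 5 BCR peaks and 1 of the 2 ABL1 peaks of K562 lie below the band, and the Molm13 peaks lie in it.

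The low values went on beyond both genes. On chromosome 22, 11 neighbouring K562 peaks from -882 to 71.6 kb of BCR all had a fold rank below 5, over 954 kb, and 8 of them below 1. The next peak on the upstream side had 18.0 and the next on the downstream side 33.2. On chromosome 9, 8 neighbouring K562 peaks from 111 to 566 kb of ABL1 had a fold rank below 5, over 455 kb, and 6 of them below 1, with 33.8 for the 1b start before them and 58.8 for the peak after them. The run on chromosome 22 therefore ended between 71.6 and 223 kb of BCR, an interval that includes exon 14. The run on chromosome 9 began between 1.78 and 111 kb of ABL1, within the intron between exons 1b and 2. K562 had no peak inside either interval, so these ends could not be placed more closely. A link of the runs to the fusion was not tested.

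In the same BCR interval, the median fold rank was 60.6 over 11 HL-60 peaks, 61.4 over 22 Molm13 peaks and 35.8 over 17 OCI-AML3 peaks, and none was below 5. In the ABL1 interval the medians were 45.0 over 7, 38.6 over 10 and 42.6 over 11 peaks, with 1 OCI-AML3 peak below 5. None of these peaks of the other lines was below 1. Such runs were not limited to the fusion genes. Runs of at least 8 neighbouring peaks with a fold rank below 5 numbered 32 in Molm13, 21 in OCI-AML3, 11 in HL-60 and 10 in K562. They were not spread evenly over the genome. Most of those of Molm13 and of OCI-AML3 lay on chromosome 8, and those of HL-60 lay on chromosomes 1, 4, 8, 10 and Y. Of the 10 in K562, 5 lay on chromosome 22 between 19.1 and 23.3 Mb, the last of them at BCR, and the ABL1 run, of 8 peaks, was the only 1 of this length on chromosome 9. Runs of at least 5 peaks numbered 73, 53, 23 and 35 in the same order of lines, and those of K562 included a second on chromosome 9, of 6 peaks at 128158802 to 128277391. The lists hold neither read depth nor copy number.

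**Figure D5:**
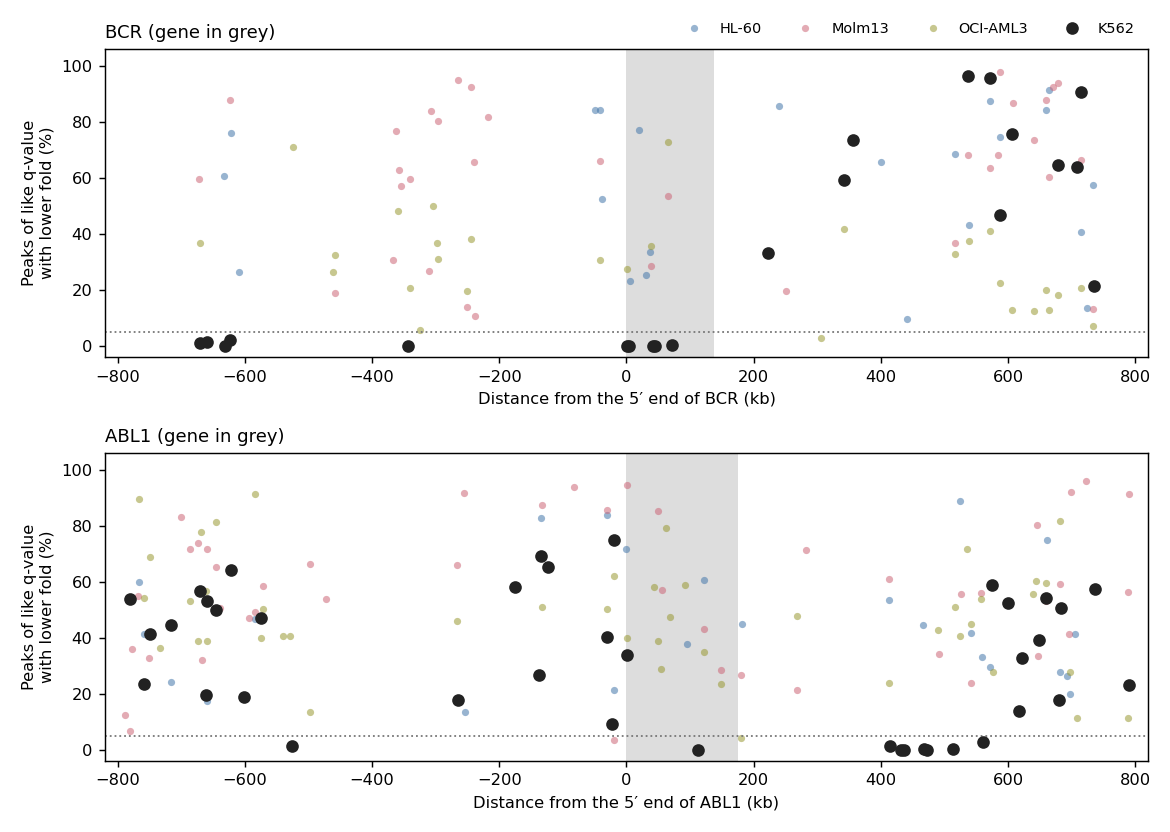
Fold rank of each H3K27ac peak (percentage of the 500 peaks of like q-value with lower fold enrichment) by distance from the 5′ end of BCR (top) and ABL1 (bottom) in kb, with K562 in black and the dotted line at 5. K562 peaks lie near 0 up to 71.6 kb of BCR and from 111 to 566 kb of ABL1, and the K562 peaks from 575 kb of ABL1 on lie higher. The K562 peak at -526 kb of ABL1 also lies low, at 1.4.

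KMT2A and MLLT3 showed no such values in Molm13. The 4 KMT2A body peaks there had fold ranks of 19.0 to 88.2 on both sides of exon 9, whose end at 47.9 kb is the usual point of fusion, with a median of 81.0 for the 3 peaks 5′ of it and 19.0 for the peak 3′ of it. The MLLT3 peak had 58.0. The 3 KMT2A body peaks of K562, which lie on chromosome 11, had 39.4 to 47.4.

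The overlap between lists varied from locus to locus. Shared bases relative to the union of a pair of lists were largest for Molm13 and OCI-AML3 at BCR, with 65.0%, against 47.2% over chromosomes 1 to 22, X and Y. At ABL1 the same pair shared 37.6%, at KMT2A 41.9% and at MLLT3 31.3%. HL-60 and K562 shared 0% at BCR, 17.9% at ABL1, 12.2% at KMT2A and 37.0% at MLLT3, against 14.6% over these chromosomes. Counted as regions, 13 lay in the BCR window with 1 that joined peaks of all 4 lists, 17 in that of ABL1 with 3, 17 in that of KMT2A with 4 and 5 in that of MLLT3 with 2. Those found in 1 list only numbered 9, 8, 9 and 2. These region counts were not set against a share over all regions of the lists and are a description.

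Other partners and cofactors of these fusions were marked at their starts in most lines. These lists, like the members, were chosen with earlier results of the data known. Of 9 further KMT2A partners, 5 had a start-site peak in HL-60, where AFF3, AFF4, MLLT1 and AFDN lacked one, and 8 in each of Molm13, OCI-AML3 and K562. The missing gene was AFDN in Molm13 and OCI-AML3, and AFF3 in K562. Their median body share was 2.11% in HL-60, 14.6% in K562, 3.41% in Molm13 and 5.66% in OCI-AML3, against 0.26%, 2.61%, 1.74% and 2.43% over all protein-coding genes in the same order. MLLT3 thus had a lower share than the median of the other KMT2A partners in every list, although genes were not matched for length. Some partners had a lower share than MLLT3. They were AFF3 (0.058%), AFF4 (0%) and AFDN (0%) in HL-60, AFDN (0%) and EPS15 (0.797%) in Molm13, and AFDN (0%) in OCI-AML3. In K562 no partner was lower.

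Of 9 genes that comprise ABL2, other ABL1 partners and adaptors of the kinase, 7 were marked in HL-60, 8 in Molm13 and 9 each in OCI-AML3 and K562, with ABL2 missing in HL-60 and Molm13 and GAB2 missing in HL-60. Their median body share was 5.05%, 10.8%, 10.2% and 9.69% in the order HL-60, Molm13, OCI-AML3 and K562. Of 8 cofactors and elongation factors of KMT2A, among them the menin gene MEN1 and the methyltransferase gene DOT1L, only MEN1 in HL-60 lacked a start-site peak. Their median body share was 5.59%, 9.57%, 9.41% and 17.2% in this order of lines. Of 9 other myeloid leukaemia fusion genes, 7 were marked in K562 and 6 in each of the other lines, and RUNX1T1 and MYH11 were marked in no line. MECOM was marked in K562 only. Their median share was 1.85%, 3.14%, 5.28% and 5.65%, again from HL-60 to K562. Over all protein-coding genes the median was 0.26%, 1.74%, 2.43% and 2.61% in this order. A start-site peak was found for 44.7%, 53.9%, 57.7% and 55.9% of all protein-coding genes, and the counts of the lists are a description.

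Genes with the pattern most like that of each member were found by the distance over 8 values, the percentile of the covered share of the 5′ and of the 3′ side in each of the 4 lists. Nearest to BCR were BCORL1, at a distance of 9.37, MAPK14, at 10.5, and CEP72, at 12.9, where the median gene lay at 114. Nearest to ABL1 were ENSG00000274322, FGGY and COMMD1, at 14.2, 16.9 and 22.4, with a median of 105. For KMT2A they were HK1, TMEM120B and OPN3, at 15.8, 18.7 and 22.2, with a median of 104, and for MLLT3 the nearest 2 were LOXHD1 and CNKSR2, at 11.4 and 11.6, with a median of 81.7. The genes like BCR were covered for over 2% in each list, and LOXHD1 and CNKSR2 had 0% in K562 as MLLT3 had. Such likeness follows from the choice of these genes by their coverage in the same lists.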

How the data were processed

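H3K27ac peak lists of HL-60, Molm13, OCI-AML3 (empty vector) and K562 (empty vector) were used, with 1 library per line. Samples were grouped by their titles. Per the labels, 15 µg of chromatin was precipitated with 2.5 µg of antibody. Per the submitters' processing notes, reads were trimmed with Trim Galore 0.4.5 and aligned to hg38 with Bowtie2 2.3.4, and peaks were called with MACS2 2.1.1. Per the study's methods, only uniquely mapped reads were kept and the broad option was used for histone marks, at a q-value of 0.05. The control library of the caller is not given in the sources used here. The deposited lists give for each peak a score, a fold enrichment (the ratio to local background) and −log10 p- and q-values, all as the authors' caller wrote them. The largest q-value in each list lay between 0.0947 and 0.0995.

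Gene spans, exons and start sites came from GENCODE 44, and peaks on chromosomes 1 to 22, X and Y were used. A peak belonged to a gene by 1 bp of overlap and to a start site within 500 bp. Body coverage was ranked among protein-coding genes of at least 50 kb in the same list. The 4 members were described with peaks at start sites, the widest and strongest peaks and the strongest peaks of 1 list only. Genes of like pattern were the 3 nearest by Euclidean distance, of which 1 is not reported here. The members and gene lists were chosen with earlier results of these data known. Alternatives were limits on q-value and list length, the gene model, the distance to a start site, the cut between 5′ and 3′ sides, the counting of peaks and the flank. Promoter sequences came from RefSeq (GRCh38.p14) for all 4 members. Code was tested on simulated intervals. SciPy 1.17.1, matplotlib 3.10.9, pandas 2.3.3 and NumPy 2.4.6 ran under Python 3.11.15.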

Additional observations from a re-analysis of the deposited data

Results flagged for a closer look

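A separate list of 395 dCas9 peaks from K562 cells with 4 sgRNAs against LTR2B, a family of endogenous retroviral repeats, was used in no comparison of the fusion genes. It held 2 peaks in the ABL1 window and 0 in those of BCR, KMT2A and MLLT3. They lay 67.5 and 71 kb past the 3′ end of ABL1 (chromosome 9, 130955176 to 130955274 and 130958691 to 130958859), nearest to a start of FIBCD1, without an H3K27ac peak of any line. Their fold enrichment was 2.04, the lowest of the whole list, and 3.01, with 4 lower peaks, against a median of 7.62. Both peaks lay in the stretch past 111 kb of ABL1 in which the K562 H3K27ac peaks also had low fold enrichment. The K562 H3K27ac peaks nearest to them on either side had their middle at 112 and 414 kb. A link between the dCas9 and the H3K27ac values was not tested. Neither the peaks nor the 4 gene windows held a site of any of the 4 sgRNAs (up to 3 mismatches, followed by NGG), whereas 267 of 393 dCas9 peaks held such a site within them. Control dCas9 data from cells with the empty vector were not used here, and the paper reports that no dCas9 peaks were detected in control cells.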

How the results depend on the processing

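No paired analysis was possible because a single list stood for each line, and leaving out a replicate was not possible for the same reason. Lines with a peak at a BCR start site fell from 3 to 1 with a q-value below 0.001. They also fell to 1 among the strongest peaks of each list by fold enrichment, as many as the shortest list holds. For MLLT3 they fell from 2 to 1 at a q-value below 0.05, to 0 below 0.001 and to 1 in the shortened lists. Lines with more coverage on the 5′ side rose from 2 to 4 for ABL1 when the cut lay at exon 2, fell from 4 to 2 for KMT2A when peaks were counted by midpoint and fell from 3 to 0 for MLLT3 with a q-value below 0.001. Body peaks of BCR in K562 fell from 5 to 2 with a q-value below 0.001 and to 0 in the shortened lists. Those of ABL1 in K562 fell from 2 to 1 in the shortened lists and to 0 on the MANE Select transcript, which starts at exon 1a. Those of KMT2A in Molm13 fell from 4 to 1 with a q-value below 0.001 and to 2 in the shortened lists, and that of MLLT3 in Molm13 fell from 1 to 0 with a q-value below 0.001. Those of ABL1 in OCI-AML3 fell from 9 to 3 with a q-value below 0.001, to 4 in the shortened lists and to 2 on the MANE Select transcript. Settings on q-value and list length keep fewer peaks, whereas the MANE Select transcript shortens ABL1 and the midpoint changes what is counted. The difference between the 5′ and the 3′ side of ABL1 turned in HL-60, from -2.05 to 2.49 percentage points on the MANE Select transcript and to 1.88 with the cut at exon 2, and in K562, from -0.242 to 2.04 in the shortened lists and to 2.68 with the cut at exon 2. That of KMT2A turned in HL-60, from 0.281 to -1.49 with a q-value below 0.001, and in Molm13, to -1 in number of peaks. The BCR difference was above 0 in HL-60, Molm13 and OCI-AML3 under all these settings, and in K562 under all but the shortened list, where it was 0. The fold rank of BCR and ABL1 in K562 was also computed with 200 or 1000 neighbours, with the p-value in place of the q-value and within classes of peak width, alternatives chosen after the data were seen, and 5 BCR peaks and 1 ABL1 peak were below 1 in each.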
